A study of Mus musculus with 4 samples.

Results

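The subject is hepatocytes (HCs) of mice without TAZ in these cells, compared with HCs of wild type mice across all genes. HC barcodes were chosen by measured values in the WT and TAZKO libraries. Kept barcodes showed between 500 and 6000 genes, and no more than 10% of their unique molecular identifiers (UMIs) came from the mitochondrial genome (mt-). The study words the limits of 500 and 6000 as transcripts, which was read here as genes. Reading them as UMIs is given below as an alternative and changed many values. A kept barcode was taken as an HC when Alb, Apoa1, Ttr, Apoc3, Cyp2e1, Ass1, Fgb and Serpina1c together held at least 4% of its UMIs. The endothelial genes Pecam1, Kdr, Stab2, Clec4g, Ptprb and Cdh5 together also had to hold under 0.2%. This gave 2224 HCs of 7155 kept barcodes in WT and 3010 of 8638 in TAZKO, in all 5234 of the 30362 barcodes kept in the 4 libraries of the study. The 14 genes of the rule are given below as a description, and a gene list that holds any of them is also counted without them.

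The study asked what the loss of YAP, of TAZ or of both from HCs and biliary epithelial cells does to the liver and its other cells. It measured RNA of single cells from fresh liver with 3′ tags on 10x Genomics droplets, in 1 mouse per genotype: WT, YAPKO, TAZKO and DKO. HCs and non-parenchymal cells were isolated apart and mixed before loading, so the share of HCs in a library reflects the mixing. None of the mice was treated, and the age of the sequenced mice was not stated. TAZKO mice carried floxed TAZ alleles and albumin-driven Cre (Alb-Cre), which removes TAZ from HCs and biliary epithelial cells but leaves it in endothelial, stellate and immune cells. WT mice were genetically unmodified, so Cre itself also differs between the groups. With 1 library a side, genotype cannot be told apart from mouse, cell isolation or library, and no test between genotypes was possible.

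TAZ is the protein of the gene Wwtr1, a transcriptional coactivator and close relative of YAP (gene Yap1). The Hippo kinases Stk3 and Stk4 activate Lats1 and Lats2, which phosphorylate YAP and TAZ and keep them out of the nucleus. In the nucleus both bind TEAD factors and raise genes such as Ccn1, Ccn2 and Ankrd1. HCs make most plasma proteins, clear drugs and form bile acids, and they divide this work along the lobule: cells near the central vein hold drug-metabolising enzymes and cells near the portal vein hold urea cycle and gluconeogenic enzymes.

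The WT library held 66259687 UMIs in 13657 barcodes and the TAZKO library 49022089 UMIs in 14418 barcodes. HCs made up 31.1% of kept barcodes in WT (30 to 32.2, exact 95% binomial interval) and 34.8% in TAZKO (33.8 to 35.9). Their UMIs summed to 19028175 in WT and 13853116 in TAZKO. The median HC held 2162 UMIs and 717.5 genes in WT and 1824.5 UMIs and 831 genes in TAZKO. Its mt- share was 0.144% in WT and 0.723% in TAZKO. All intervals given here are at 95% and cover counting error only.

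HC barcodes of both libraries divided into shallow and deep ones. In WT, 1655 HCs (74.4%) had fewer than 5000 UMIs and held 18.0% of HC UMIs, with a median mt- share of 0.115%. The 379 WT HCs with 10000 UMIs or more (17.0%) held 74.9% of the UMIs, with a median mt- share of 3.7%. Summed WT levels therefore describe mostly deep barcodes. In TAZKO, 2487 HCs (82.6%) were under 5000 UMIs and held 34.0% of HC UMIs at an mt- share of 0.494%. The 284 deep TAZKO HCs (9.44%) held 54.7% of the UMIs at an mt- share of 4.89%. Barcodes under 500 genes, which were left out, had HC marker shares near those of the shallow HCs: a median of 7.8% in 6237 WT barcodes and 7.59% in 5465 TAZKO barcodes, against 9.42% and 8.76% in shallow HCs. Their median mt- shares were 0.161% and 0.532%. By these medians shallow HCs were close to barcodes too poor in genes to be kept. This did not hold for the summed level of mt-Cytb, the cytochrome b gene of the mitochondrial genome. It stood at 6393 CPM (UMIs per 1000000 UMIs) in WT and 34970 in TAZKO in barcodes under 500 genes. In shallow HCs it stood at 1049 and 3900 CPM. Summed levels of some HC genes were nearer. In WT, Mup20 stood at 62960 CPM in barcodes under 500 genes and 72695 in shallow HCs. In TAZKO, Cyp7a1 stood at 120 and 116 CPM. Deep and shallow HCs are given apart for the main results, and list members that did not pass 2-fold in deep HCs or had too few UMIs there are given below. Depth and mt- share moved with genotype, and their part in the results was not tested.

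**Figure D1:**
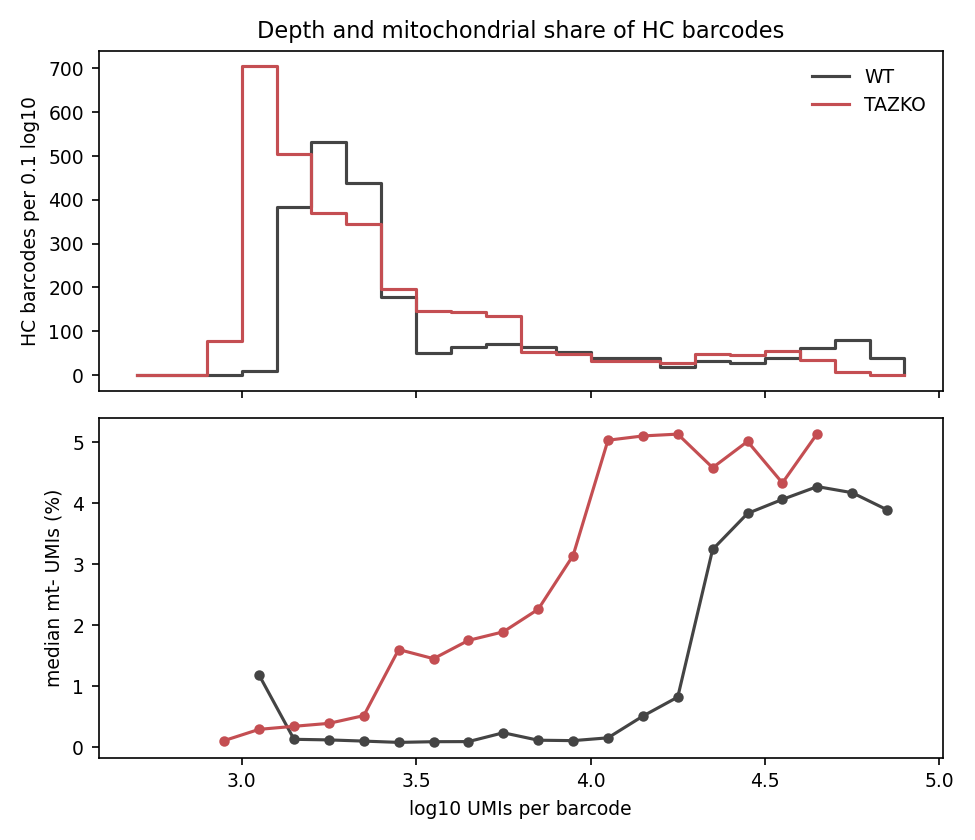
Number of HC barcodes (upper panel, per 0.1 of log10 UMIs) and their median percentage of mt- UMIs (lower panel, bins with at least 10 barcodes) against log10 UMIs per barcode, in WT and TAZKO. In WT, after a first bin of 10 barcodes at 1.18%, the mt- share stays at or below 0.236% up to the bin from 4.0 and then climbs to 4.27% at 4.6, while in TAZKO it is at 1.6% from 3.4 and 5.03% from 4.0.

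Near the thresholds, 24 WT and 94 TAZKO barcodes with few endothelial UMIs had an HC marker share of 3 to 4% and were left out, while 30 and 88 with 4 to 5% were taken. The share was over 10% in 883 WT and 416 TAZKO HCs. The endothelial limit left out 25 WT and 51 TAZKO barcodes, of which 1 and 8 lay at 0.2 to 0.3%, and 12 and 20 HCs lay at 0.1 to 0.2%. The mt- limit left out 66 WT and 148 TAZKO barcodes that met the marker rule, and the limit of 6000 genes left out 81 and 12. WT and TAZKO had 67 barcode sequences in common, and 2 of them were HCs in both.

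The HCs are described by markers in CPM, with UMIs summed over the HCs of a library. Alb, Apoa1, Ttr and Apoc3 together stood at 87862 CPM in WT and 81687 in TAZKO, against 3502 and 4748 in kept barcodes outside the HCs, which the rule itself brings about. HC markers outside the rule are free of that: Vtn, a plasma adhesion protein, stood at 1536 CPM in WT HCs and 1180 in TAZKO HCs, against 58.6 and 91.3 outside them. Cps1, of the urea cycle, stood at 1075 and 2331 CPM against 27.5 and 122, and the transcription factor gene Hnf4a at 130 and 249 against 4.94 and 25.1. All 3 were thus concentrated in the barcodes called HCs in both libraries. Of endothelial markers outside the rule, Egfl7 was at 5.31 and 6.14 CPM in HCs against 487 and 376 outside, and Dnase1l3 at 12.5 and 12 against 1582 and 1279. With the 6 of the rule the endothelial markers summed to 59.0 and 62.1 CPM. Kupffer markers summed to 157 and 138, macrophage markers to 32.2 and 25.0, and stellate markers to 13.9 and 12.8.

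Some immune markers differed between the HCs of WT and TAZKO, and their part in the results was not tested. The 5 neutrophil markers summed to 227 CPM in WT HCs and 16.9 in TAZKO HCs, led by S100a9 at 129 CPM in WT and S100a8 at 7.36 in TAZKO. Outside the HCs they stood at 3803 and 216 CPM, so this difference ran through the whole libraries. B cell markers (6 of 6 with UMIs, led by Ighm) summed to 18.0 CPM in WT and 73.7 in TAZKO, and T and NK cell markers (8 of 8, led by Ccl5) to 43.0 and 81.8. Dendritic markers, led by Cd74, stood at 117 and 189 CPM, with Xcr1 at 0 in WT. The biliary list summed to 51.3 CPM in WT, led by Spp1 at 39.0, and to 48.1 in TAZKO, led by Sox9 at 35.6 and with Krt7 at 0. Red blood cell genes stood at 3.47 and 3.68 CPM, with Hba-a2 and Hbb-bt at 0 in both.

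Wwtr1 (ENSMUSG00000027803), the deleted gene, lies on chromosome 3 of GRCm38 at 57455649 to 57575910 on the minus strand, with 7 exons. Its last exon alone spans 3462 bases, and 3′ tags lie mostly there. The study's quantitative PCR primers for TAZ show how far that is from the part of the transcript it assayed. They were matched by letters to the annotated transcript Wwtr1-201 of 4697 bases:
TAZ-for: cagccgaatctcgcaatgaatcac
TAZ-rev: actcatgagccctgtgggtt
The forward primer matched bases 788 to 811, starting in exon 3, and the reverse primer matched the opposite strand of bases 870 to 889 in exon 4, at chr3:57477468-57477487. The pair thus ends 3808 bases before the 3′ end. Which exons the floxed allele loses cannot be read from these data. Where the deleted part lies upstream, a 3′ tag may still be counted from an altered transcript.

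In HCs Wwtr1 stood at 5.15 CPM in WT (98 UMIs, 4.18 to 6.28), 13.2 in YAPKO (11.6 to 15.1), 1.44 in TAZKO (20 UMIs, 0.882 to 2.23) and 2.31 in DKO (1.81 to 2.91). The libraries labelled as lacking TAZ were thus the lowest pair, and their intervals lay below those of WT and YAPKO. A UMI of Wwtr1 was seen in 3.96% of WT HCs and 0.664% of TAZKO HCs. In B-cell barcodes, taken here as a measure of free RNA although it was not tested whether B cells hold the gene, these shares were 1.83% at a median of 2949 UMIs and 0.533% at 2813 UMIs, with levels of 6.82 CPM (3.4 to 12.2) and 2.65 CPM (0.859 to 6.17). The WT level over all HCs was thus not above that in B-cell barcodes. Deep HCs separated more: 19.5% of WT deep HCs (median 38555 UMIs) and 2.82% of TAZKO deep HCs (median 25223 UMIs) had a UMI, at 5.89 and 1.05 CPM. The deep WT level (4.7 to 7.29) was also not above that in WT B-cell barcodes. The share with a UMI is larger in deep HCs partly because they hold more UMIs each. In endothelial barcodes, where Alb-Cre does not act, Wwtr1 was at 134 CPM in WT (129 to 140) and 122 CPM in TAZKO (116 to 128).

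From here on a difference between TAZKO and WT is given as a relative log2 ratio. This is the log2 ratio of CPM, TAZKO to WT, less the median of that ratio over the 10560 genes with at least 50 UMIs in the HCs of both libraries together. The median was 0.58, that is 1.5-fold. Abundant transcripts held less of the TAZKO total: the 10 most abundant genes took 28.8% of HC UMIs in WT and 21.1% in TAZKO, and the median was still 0.32 with the 50 most abundant left out of the totals. A gene or list with a negative relative value smaller in size than 0.58 lies below the typical gene and yet is higher in CPM in TAZKO. Intervals of ratios are exact conditional binomial ones. A gene is said to rise or fall only where the relative ratio passed 2-fold, and no p-value attaches to it.

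Wwtr1 fell, with a relative log2 ratio of -2.42 (-3.19 to -1.71) over all HCs and -2.9 in deep HCs. Shallow HCs held only 11 UMIs of it in WT and 12 in TAZKO, at 3.21 and 2.54 CPM (-1.27), and barcodes under 500 genes stood at 5.17 and 4.72 CPM. The difference thus rests on deep HCs. Yap1, the paralog that TAZKO mice keep, stood at 21.2 CPM in WT, 46.7 in TAZKO, 4.61 in YAPKO and 4.59 in DKO. The TAZKO level was the highest, and both libraries labelled as lacking YAP were the lowest. Its relative log2 ratio was 0.56 (0.38 to 0.74), short of 2-fold. In deep HCs the ratio was 0.57 and in shallow HCs 1.27, past 2-fold. Yap1 in B-cell barcodes was at 2.48 CPM in WT and 3.7 in TAZKO, but barcodes under 500 genes held 6.37 CPM in WT and 30.2 in TAZKO.

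Of the 10560 genes, 460 (4.36%) were higher and 616 (5.83%) lower in TAZKO HCs past 2-fold, in all 1076 (10.2%). Without centring these numbers were 2159 and 165, so the balance rests on the centring. The counts that follow are centred. Past 4-fold were 96 higher and 92 lower. The 10th and 90th percentiles of the relative log2 ratio were -0.82 and 0.67. For 170 of the higher and 311 of the lower genes the whole interval lay past 2-fold. In 280 of the 460 higher genes the CPM in TAZKO barcodes outside the HCs was above that in HCs, and in 314 of the 616 lower genes the same held in WT. These are 60.9% and 51.0%, while of all genes counted 68.2% in TAZKO and 73.8% in WT were more abundant outside the HCs. Among deep HCs alone 279 of 9599 genes were higher and 384 lower. Of the 460 higher genes, 212 had enough UMIs in deep and in shallow HCs, and 132 passed 2-fold in both, as did 215 of 398 such genes among the 616 lower ones. These genes were chosen on the sum of the same barcodes, so these numbers are no independent check.

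**Figure D2:**
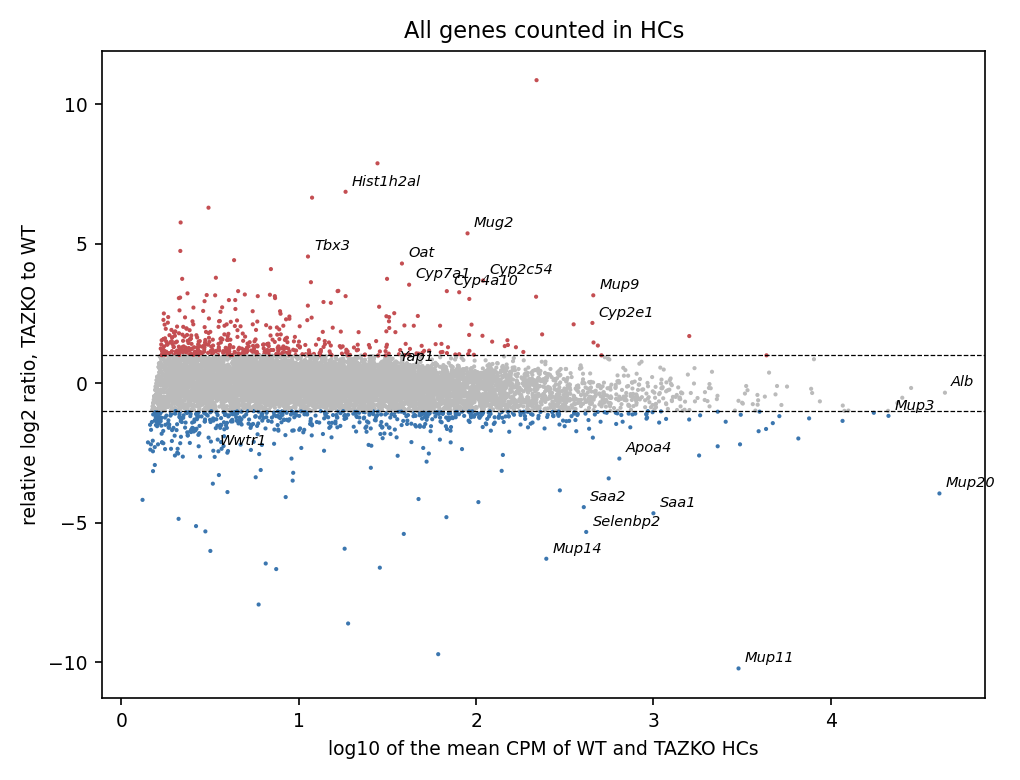
Relative log2 ratio of TAZKO to WT against log10 of the mean CPM of both libraries for the 10560 genes counted in HCs, with dashed lines at 2-fold and genes past them in red (higher) and blue (lower). Mup11 at -10.22 stands apart at high abundance, and Mup20 at -3.95 is among the most abundant genes of all.

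Past 32-fold were 21 genes, 7 higher and 14 lower, and many of them differed outside the HCs as well. The genetic background of the mice was not stated, so a difference of background between the mice cannot be told apart from the loss of TAZ for such genes. These genes were singled out after their values were seen. Rps3a3, annotated as a processed pseudogene of a ribosomal protein gene, had the highest ratio, 10.86. It stood in HCs at 0.158 CPM in WT, 0.413 in YAPKO, 438 in TAZKO and 635 in DKO, and outside the HCs at 0.689, 0.83, 1470 and 1817. Rps15a-ps8 and Hist1h2al had the same pattern, near 0 in WT and YAPKO and present in TAZKO and DKO: Hist1h2al stood in HCs at 0.21, 0.059, 36.5 and 40.9 CPM in the order WT, YAPKO, TAZKO and DKO. Hist1h2al was also at 25.9 CPM in TAZKO B-cell barcodes and 0.62 in WT ones. Gm8420, also a processed pseudogene, was instead missing from TAZKO alone, at 122, 140, 0.217 and 169 CPM in HCs and 337, 486, 0.523 and 354 outside them. Gm14094, Gm11942, Gm5292 and AA465934 had this second pattern. All 14 lower genes were also lower outside the HCs, and 6 of the 7 higher ones were also higher there. The exception was Clec2h, a lectin-like receptor gene, at 0.0526 CPM in WT HCs and 6.14 in TAZKO HCs, but 0.479 and 0.279 outside them. Among the lower genes, Mme hardly differed outside the HCs, at 0.779 CPM in WT and 0.662 in TAZKO, against 5.05 and 0.217 in HCs. Free RNA was not subtracted. B-cell barcodes, the measure of free RNA used above, held 742 CPM of Mup11 in WT and 0 in TAZKO. Of Selenbp2 they held 70.7 and 3.7 CPM. The values of Mup11 or Selenbp2 outside the HCs therefore need not show expression there. Rps3a3 and Gm8420 were higher outside the HCs than in them in the libraries that held them.

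The named genes below come from a rule on level, fold and symbol, among genes with no less CPM in HCs than outside them in the library where they are higher. Gdpd3, for example, was left out because it stood at 75.5 CPM in WT HCs and 393 outside them. The 12 with the highest relative ratio were Hist1h2al, Mug2, Tbx3, Nipal1, Oat, Cyp2c54, Cyp4a14, Cyp7a1, Cyp4a10, Cyp2c37, Cyp2c67 and Mup9. The 12 with the lowest were Mup11, Mup-ps20, H2-Bl, Mup14, Wfdc12, Selenbp2, Mup-ps19, Saa1, Saa2, Mup12, Mup20 and Mup-ps13.

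Pericentral landmarks, genes known from HCs near the central vein, were the list with the largest number of members higher, though the female-biased list given below had a larger share and median: 11 of 17 rose and none fell, with a median of 1.7, beside 4.36% of all genes higher. This share and the 5.83% of all genes that were lower stand beside every list count below. Without the selection gene Cyp2e1 these were 10 of 16, with a median of 1.58. The other 5 of the 22 listed had fewer than 50 UMIs. Tbx3, a transcription factor of the zone around the central vein, stood at 0.631 CPM in WT, 2.36 in YAPKO, 21.9 in TAZKO and 1.76 in DKO. TAZKO alone was high. Its relative log2 ratio was 4.54 (3.71 to 5.5). Cyp2c54 and Cyp2c37 encode cytochromes P450 that oxidise drugs and fatty acids, and near-identical Cyp2c copies leave counts uncertain between them. Cyp2c54 stood at 10.9 CPM in WT, 22.4 in YAPKO, 208 in TAZKO and 35.3 in DKO (ratio 3.68, 3.47 to 3.89). Cyp2c37 stood at 2.1, 3.37, 31.0 and 3.66 CPM in the same order (ratio 3.3, 2.83 to 3.81). TAZKO was the highest of the 4 libraries for both. Aldh1a1, a retinaldehyde dehydrogenase and the most abundant landmark, was at 255 CPM in WT and 763 in TAZKO, with a ratio of 1.00 that ended just short of 2-fold. Cyp2e1, a selection gene given as a description, was at 118, 205, 787 and 237 CPM. TAZKO barcodes under 500 genes held more than HCs of Tbx3 (33.0 CPM), Cyp2c54 (333), Cyp2c37 (39.6) and Cyp2e1 (1054). They held less of Aldh1a1 (527). In WT barcodes under 500 genes these levels were 0.796, 13.1, 0.597, 80.8 and 130 CPM. The part of such barcodes in the results was not tested.

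Not all pericentral genes moved. Glul, the glutamine synthetase of the layer next to the vein, was at 26.2 CPM in WT and 28.8 in TAZKO, a relative ratio of -0.45. Gstm3, a glutathione transferase, had a ratio of -0.04. These genes were named because they lay against the rest of the list. For Glul and Gstm3 the negative value comes from the centring, as their CPM is higher in TAZKO.

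Oat, ornithine aminotransferase, converts ornithine in mitochondria and marks the innermost pericentral HCs. It stood at 2.52 CPM in WT, 99.4 in YAPKO, 73.8 in TAZKO and 80.4 in DKO. Here WT alone was low, unlike the Cyp2c genes, where TAZKO alone was high. The relative log2 ratio of TAZKO to WT was 4.29 (3.87 to 4.74), and it was 4.87 in deep HCs and 3.3 in shallow ones. Oat was not confined to HCs: outside them it stood at 65.5 CPM in WT and 59.1 in TAZKO, and in B-cell barcodes at 59.5 and 43.9. The Oat promoter is shown with its single match to GGAATG, the letters TEAD factors bind, in capitals. It is taken from the RefSeq table (GRCm38.p6, minus strand, chr7:132576349-132576648, from 250 bases before to 50 after the gene's start):
Oat: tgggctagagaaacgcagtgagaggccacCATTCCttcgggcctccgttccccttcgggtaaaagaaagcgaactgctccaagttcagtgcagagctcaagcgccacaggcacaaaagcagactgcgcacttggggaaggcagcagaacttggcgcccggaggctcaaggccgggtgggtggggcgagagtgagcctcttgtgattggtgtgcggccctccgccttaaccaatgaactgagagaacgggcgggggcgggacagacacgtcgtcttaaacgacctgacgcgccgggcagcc
The match is on the opposite strand, so it reads CATTCC, and starts at base -221 from the gene's start. GGAATG in either direction occurs in 4817 of 32851 promoters of this length (14.7%), so a match alone says little. Promoters are shown in this report only where they hold a match. The promoter of Nipal1, which was also low in WT alone, held no match to GGAATG.

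Promoters in the RefSeq table were found for 12 of the 24 genes named by the rule. They were searched on both strands for the TEAD element given above and for AGGTCA, an element bound by nuclear receptors that occurs in 16.3% of promoters. Elements of STAT factors (8.3% of promoters), of NF-kB (0.155%) and of TCF and LEF factors (3.73%) were searched too. The TEAD element occurred once each in Oat, Cyp2c67, Mup9, Mup11, Mup14 and Selenbp2, of which 3 were higher and 3 lower. AGGTCA occurred once each in Saa1 and Saa2, and the other motifs had no match in these windows.

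A per-cell index of zonation was formed from landmark UMIs, pericentral over pericentral plus periportal, without the selection genes Cyp2e1 and Ass1. It was taken for HCs with at least 20 such UMIs, 1039 in WT and 2170 in TAZKO. Its median was 0.0435 in WT and 0.25 in TAZKO. The index was under 1/3 in 97.9% of WT HCs (96.8 to 98.7) and 77.6% of TAZKO HCs (75.7 to 79.3). Between 1/3 and 2/3 lay 18 WT HCs (1.73%) and 477 TAZKO HCs (22.0%), and over 2/3 lay 4 (0.385%) and 10 (0.461%). Intermediate values were thus more frequent in TAZKO, while the share of strongly pericentral barcodes hardly differed. YAPKO had 6.65% and DKO 0.304% of HCs over 2/3.

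The shift of the index was larger in shallow than in deep HCs. The median was 0.268 in shallow and 0.0623 in deep TAZKO HCs, and 0.0625 and 0.0383 in WT. Barcodes under 500 genes with enough landmark UMIs, 71 in TAZKO, had a median of 0.3, close to the shallow TAZKO HCs, and their part in the shift was not tested. Of the TAZKO HCs, 585 lay within 0.05 of 1/3, so the split there depends on the limit. These are ranges of a share, not cell types.

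**Figure D3:**
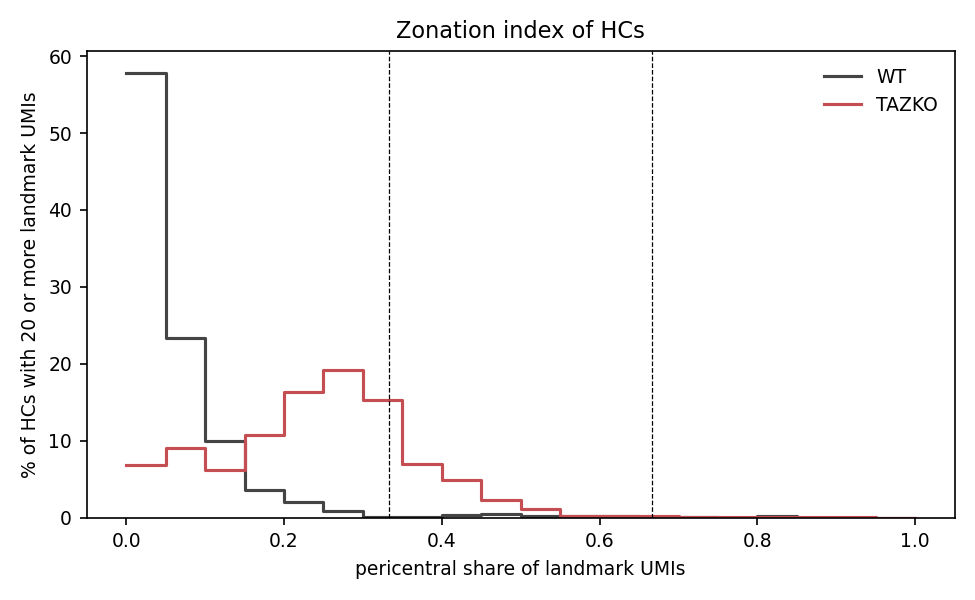
Percentage of HCs with at least 20 landmark UMIs in bins of 0.05 of the pericentral share of landmark UMIs, in WT and TAZKO, with dashed lines at 1/3 and 2/3. WT piles up near 0, and TAZKO has a broad peak below 1/3 around its median of 0.25.

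Values in the 3 ranges are a description only, since the ranges are set on pericentral UMIs and so make pericentral levels alike by construction, and WT has only 4 HCs over 2/3. The selection gene Cyp2e1 stood at 28.8 CPM in WT and 451 in TAZKO under 1/3, at 2336 and 1986 between 1/3 and 2/3, and at 5717 and 7227 over 2/3. Its relative log2 ratios were 3.42, -0.45 and 0.27 in that order. They were 5.04, 1.52 and 0.7 for Cyp2c54, 5.28, 0.85 and 1.67 for Cyp2c37 and 0.88, 0.38 and 0.79 for Aldh1a1. Oat kept ratios of 3.99, 3.46 and 4.34 in the 3 ranges, although WT had 22, 6 and 7 UMIs there.

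Periportal landmarks were counted for all 21 members, of which none rose and 3 fell, with a median of -0.42 (-0.39 without the selection gene Ass1). Without centring that median is above 0. The genes that fell were Apoa4, a lipoprotein component also raised by fasting, from 1044 to 240 CPM (ratio -2.7), Ctsc, a lysosomal protease, from 126 to 81.8 (-1.21), and Sds, serine dehydratase, from 311 to 229 (-1.03). Apoa4 was at 1716 CPM in YAPKO and 378 in DKO, so the libraries without TAZ were the low pair. Serpina12, which encodes vaspin, had a ratio of -0.96. The urea cycle genes Ass1, Asl and Cps1 had ratios of -0.45, -0.51 and 0.54.

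Targets of PPAR-alpha, the receptor that drives fatty acid oxidation, had a median of -0.07 over 17 members, 3 of which rose. Cyp4a14 and Cyp4a10, fatty acid hydroxylases at the core of this response with near-identical copies in the Cyp4a family, were 2 of the 3. Cyp4a10 stood at 8.67 CPM in WT, 4.72 in YAPKO, 128 in TAZKO and 45.3 in DKO, with a ratio of 3.3 (3.07 to 3.54). Cyp4a14 stood at 1.21, 0.472, 22.2 and 51.7 CPM, with a ratio of 3.62 (3.0 to 4.3). Both were thus higher in TAZKO and DKO than in WT and YAPKO. Acot1, a thioesterase, was the third, from 1.31 to 8.08 CPM (2.04). Fabp1, the fatty acid binding protein and most abundant member, went from 23944 to 18082 CPM (-0.99), so the list did not move as a whole.

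Among bile acid genes 5 of 21 rose and 3 fell, with a median of 0.16. Cyp7a1 encodes the enzyme that starts the classical route from cholesterol to bile acids. It stood at 4.57 CPM in WT, 9.92 in YAPKO, 79.2 in TAZKO and 29.2 in DKO, and had a UMI in 1.62% of WT and 20.6% of TAZKO HCs. WT was the lowest and TAZKO the highest. Its relative ratio was 3.53 (3.22 to 3.87), with 3.07 in deep HCs, but barcodes under 500 genes also held 2.79 and 120 CPM. The uptake carriers Slco1a1 (78.1 to 393 CPM, ratio 1.75), Slco1a4 (3.1 to 13.6, 1.55) and Slco1b2 (202 to 769, 1.35) rose, as did Akr1d1, a steroid reductase, with 1.04. Slc51b, an export subunit on the blood side, fell from 5.52 to 1.52 CPM (-2.44). Cyp7b1, of the alternative route, fell with -1.34, and Nr0b2, the repressor SHP that lowers Cyp7a1, with -1.01.

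Xenobiotic enzymes under CAR, PXR and NRF2 had a median of 0.07 over 24 members, with 4 higher and 2 lower. Nr1i3, which encodes CAR itself, stood at 5.15 CPM in WT, 7.38 in YAPKO, 51.6 in TAZKO and 21.2 in DKO (ratio 2.74, 2.44 to 3.06). Cyp3a11, a drug oxidase, was at 30.6, 404, 152 and 1075 CPM (1.73), so its TAZKO value was the smallest among the knockouts. In deep HCs its ratio was 0.75, short of 2-fold, and 1.99 in shallow ones. Cyp2b10 (1.18) and Cyp2c55 (2.01) also rose. The glutathione transferases Gsta2 (33.6 to 20.1 CPM, -1.32) and Gsta4 (65.6 to 39.6, -1.31) fell, though with -0.98 and -0.81 in deep HCs, while Gsta3, the most abundant member, had -0.23.

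Major urinary proteins (Mups) are small lipocalins that HCs secrete and that carry pheromones in urine. The 22 genes with numbered names together took 11.3% of all HC UMIs in WT, 5.77% in YAPKO, 2.71% in TAZKO and 4.87% in DKO. In TAZKO 17 of the 22 fell and 1 rose, with a median of -1.53, beside 5.83% of all genes lower. The copies are near-identical, so a count is uncertain between them: over the last 300 bases of the transcripts, Mup11 shared 291 bases with Mup9, 293 with Mup14, 292 with Mup12 and 270 with Mup20. The sum over the 22 genes does not depend on how counts were divided among them. Whether reads that match several copies were counted at all was not tested. The relative log2 ratio of the sum was -2.64 (-2.65 to -2.64), and Mup20 gave 74689 of its 112958 CPM in WT.

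Mup20, the pheromone darcin, stood at 74689 CPM in WT, 42450 in YAPKO, 7210 in TAZKO and 41769 in DKO. TAZKO alone was far below the others, and the relative ratio was -3.95 (-3.96 to -3.94), with -3.32 in deep and -5.2 in shallow HCs. B-cell barcodes held 5530 CPM of it in WT and 294 in TAZKO. Mup11 (ENSMUSG00000073834) fell from 6025 CPM in WT to 7.58 in TAZKO, with 545 in YAPKO and 35.3 in DKO, a ratio of -10.22 (-10.51 to -9.94). It was seen in 99.2% of WT and 3.02% of TAZKO HCs. Mup14 (488 to 9.31 CPM, -6.29) and Mup12 (191 to 14.9, -4.26) fell too, as did the pseudogenes Mup-ps20 (-6.61), Mup-ps19 (-5.31) and Mup-ps13 (-3.9). Mup14 stood at 63.1 CPM in YAPKO and 23.4 in DKO. Mup-ps20 stood at 56.4 CPM in WT, 12.6 in YAPKO, 0.866 in TAZKO and 3.66 in DKO. Mup7 stood at 980 CPM in WT, 144 in YAPKO, 138 in TAZKO and 42.1 in DKO (-3.41), and Mup21 at 2897, 454, 719 and 368 (-2.59). For both, and for Mup12 with 31.4 CPM in YAPKO and 17.2 in DKO, WT alone was high. The same held for Mup11, Mup14 and Mup-ps20.

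Mup9 went the opposite way from Mup11. It stood at 64.2 CPM in WT, 1947 in YAPKO, 851 in TAZKO and 25.3 in DKO, a relative ratio of 3.15 (3.06 to 3.23). YAPKO and TAZKO were high, WT and DKO low. All 8 Mup genes and pseudogenes named by the rule on the highest and lowest ratios lie on chromosome 4 between 60418046 and 62054158. The promoters of this oppositely moving pair are shown to let their likeness be seen, with the match to GGAATG in capitals (RefSeq table, GRCm38.p6, both on the minus strand, Mup9 at chr4:60421903-60422202 and Mup11 at chr4:60662346-60662645):
Mup9: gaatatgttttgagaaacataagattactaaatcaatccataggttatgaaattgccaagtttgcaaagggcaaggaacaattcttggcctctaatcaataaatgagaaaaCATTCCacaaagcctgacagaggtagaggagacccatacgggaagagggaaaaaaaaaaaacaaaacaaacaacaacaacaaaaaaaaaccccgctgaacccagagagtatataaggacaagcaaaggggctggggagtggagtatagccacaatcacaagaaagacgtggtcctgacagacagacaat
Mup11: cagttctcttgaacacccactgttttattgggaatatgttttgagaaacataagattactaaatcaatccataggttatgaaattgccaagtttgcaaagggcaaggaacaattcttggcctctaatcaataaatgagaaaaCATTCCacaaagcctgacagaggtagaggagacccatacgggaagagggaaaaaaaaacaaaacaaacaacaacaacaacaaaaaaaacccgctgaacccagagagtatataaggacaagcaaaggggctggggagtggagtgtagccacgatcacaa
Aligned with each other they were identical at 265 of 272 positions, with the table's start of Mup11 set 31 bases further upstream. Sequence near the start therefore hardly separates these copies, whose counts differ in direction.

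Many Mups are more abundant in male livers, and the male-biased list as a whole had 1 of 20 members higher and 8 lower, with a median of -0.79. Selenbp2, a selenium-binding protein gene of this list, fell most. It stood at 805 CPM in WT, 513 in YAPKO, 29.9 in TAZKO and 15.0 in DKO, so the libraries without TAZ were the low pair. Its ratio was -5.33 (-5.48 to -5.19), with -5.3 in deep and -5.58 in shallow HCs. It was seen in 83.5% of WT and 10.7% of TAZKO HCs, and in B-cell barcodes it stood at 70.7 and 3.7 CPM. The Selenbp2 promoter is shown with the match to GGAATG in capitals at base 40 (RefSeq table, GRCm38.p6, plus strand, chr3:94693323-94693622):
Selenbp2: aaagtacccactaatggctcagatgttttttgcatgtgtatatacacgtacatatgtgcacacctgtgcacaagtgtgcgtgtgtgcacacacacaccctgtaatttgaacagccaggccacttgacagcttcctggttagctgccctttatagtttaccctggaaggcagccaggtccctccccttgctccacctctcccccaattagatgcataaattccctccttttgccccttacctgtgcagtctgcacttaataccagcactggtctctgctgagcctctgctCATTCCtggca
The other members that fell were Mup20, Mup7, Mup21, Mup3, Gstp1, Cyp7b1 and C6, while Slco1a1 rose. Cyp4a12a and Elovl3, further male-biased enzymes, had ratios of 0.34 and 0.12, so the list was not uniform.

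Only 4 of the 24 female-biased genes had enough UMIs, and 3 rose, with a median of 1.96: Cyp4a14, Cyp2a5 (2.05 to 14.9 CPM, 2.29) and Abcd2, a peroxisomal transporter gene (3.05 to 14.1 CPM, 1.63). Cyp17a1 had -0.95. Genes such as Cyp2b13, Cyp3a41a and Sult2a2 were at 0 CPM in both WT and TAZKO. Of the X and Y linked genes 4 of 5 were counted and none passed 2-fold, with a median of 0.6. The Y-linked gene Ddx3y stood at 49.6 CPM in WT and 110 in TAZKO, and Kdm5d, Uty and Eif2s3y were also present in both (ratios 0.63, 0.62 and -0.47).

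Growth hormone, acting through STAT5, sets sex-biased expression in HCs. Its list had 2 of 18 members higher and 3 lower, with a median of 0.13. Bcl6, a repressor that counteracts STAT5, rose from 7.41 to 57.2 CPM (ratio 2.37, 2.11 to 2.64), with 18.6 in YAPKO and 31.9 in DKO. Prlr, the prolactin receptor gene, rose from 10.5 to 83.3 CPM (2.41, 2.19 to 2.63), with 16.8 and 44.5. Both had their highest level in TAZKO. Cish, a feedback inhibitor induced by STAT5, fell from 10.9 to 3.61 CPM (-2.17). Igfbp1 (-1.21) and Onecut1 (-1.21) fell, and Igf1, the growth factor itself and the most abundant member, had -0.11.

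Acute phase genes, which HCs raise in inflammation, had many members lower in TAZKO: 13 of 26 fell and none rose, beside 5.83% of all genes lower, with a median of -1.07. Without the selection gene Fgb 12 of 25 fell, with a median of -0.93. Saa1 and Saa2 encode serum amyloid A proteins and share 280 of the last 300 transcript bases, so counts are uncertain between them. Saa1 stood at 1887 CPM in WT, 1709 in YAPKO, 111 in TAZKO and 317 in DKO, with a ratio of -4.66 (-4.74 to -4.59). Saa2 stood at 757, 838, 52.1 and 112 CPM, with a ratio of -4.44 (-4.55 to -4.33). WT and YAPKO were high and the libraries without TAZ low for both. A Saa1 UMI was found in 91.5% of WT and 18.1% of TAZKO HCs. Orm2, an acid glycoprotein gene, went from 57.9 to 14.3 CPM (-2.6). Hamp, the gene of the iron hormone hepcidin, went from 5382 to 2449 (-1.72). Lcn2, a lipocalin that neutrophils also express, went from 21.7 to 6.06 CPM (-2.42), beside the lower neutrophil markers given above. Serpina3k, the most abundant member, had -0.65. The neighbouring promoters of Saa1 and Saa2, which fell together, each hold AGGTCA once on the opposite strand, given in capitals (RefSeq table, GRCm38.p6, Saa1 on the minus strand at chr7:46742931-46743230, Saa2 on the plus strand at chr7:46751583-46751882):
Saa1: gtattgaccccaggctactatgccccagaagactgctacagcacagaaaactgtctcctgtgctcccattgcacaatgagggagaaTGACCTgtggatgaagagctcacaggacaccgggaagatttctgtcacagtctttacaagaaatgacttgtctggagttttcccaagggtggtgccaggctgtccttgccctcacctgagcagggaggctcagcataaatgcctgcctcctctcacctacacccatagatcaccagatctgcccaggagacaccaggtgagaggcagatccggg
Saa2: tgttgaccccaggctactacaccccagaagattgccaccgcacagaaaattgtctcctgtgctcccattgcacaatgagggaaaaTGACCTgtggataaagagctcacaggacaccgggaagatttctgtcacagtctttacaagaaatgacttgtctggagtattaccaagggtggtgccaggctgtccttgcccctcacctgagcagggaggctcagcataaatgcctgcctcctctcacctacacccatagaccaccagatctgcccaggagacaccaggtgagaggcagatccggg
The matches start at bases -164 and -165.

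Other plasma protein lists also lay below the median gene. Of 27 complement and coagulation genes none rose and 4 fell, with a median of -0.41 that is above 0 without centring: Cfb, complement factor B (53.3 to 35.3 CPM, -1.18), Masp2, a protease of the lectin route (-1.18), and C8b and C8g, subunits of the membrane attack complex (-1.17 and -1.0). C3, the central component and most abundant member, went from 1773 to 2128 CPM (-0.32). Apolipoproteins had 0 of 16 higher and 5 lower, with a median of -0.75: Apoa4, Apoc2, the activator of lipoprotein lipase (-2.36), Apoc3, Apom (-1.14) and Apof (-1.04). Without the selection genes Apoa1 and Apoc3 4 of 14 fell, with a median of -0.7. Apoa2, the most abundant of them, had -0.52. Clade A serine protease inhibitors had 0 of 12 higher and 4 lower, with a median of -0.98: Serpina1a, Serpina1b, Serpina1c and Serpina1d fell between -1.02 and -1.26 and Serpina1e had -0.99, in a family of near-identical antitrypsin copies. Without the selection gene Serpina1c 3 of 11 fell, with a median of -0.96. In deep HCs all of the 4 were short of 2-fold, with -0.61, -0.54, -0.83 and -0.58, and so were the 4 complement genes, with -0.94 for Cfb, -0.89 for Masp2, -0.91 for C8b and -0.75 for C8g.

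The selection genes, as a description, had relative log2 ratios of -0.34 for Alb (40265 to 47710 CPM), -0.8 for Apoa1, -1.06 for Ttr, -1.35 for Apoc3, 2.16 for Cyp2e1, -0.45 for Ass1, -1.98 for Fgb and -1.26 for Serpina1c.

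**Figure D4:**
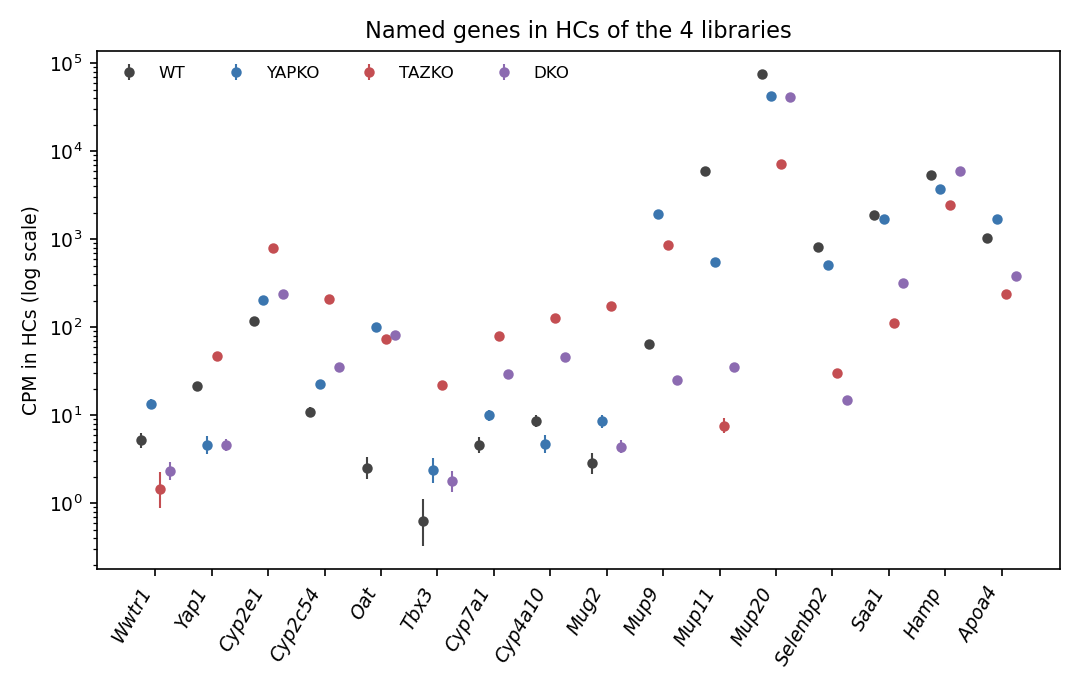
CPM in HCs on a log scale for 16 named genes in WT, YAPKO, TAZKO and DKO, with 95% Poisson intervals as bars (counting error only, 1 library per genotype). Selenbp2, Saa1 and Apoa4 are lower in TAZKO and DKO than in WT and YAPKO, Mup20 is lowest in TAZKO, and Tbx3, Cyp2c54, Cyp7a1 and Mug2 are highest in TAZKO.

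Among the remaining genes of the rule, Mug2, a murinoglobulin that traps proteases in plasma, stood at 2.84 CPM in WT, 8.56 in YAPKO, 176 in TAZKO and 4.36 in DKO. TAZKO alone was high, with a ratio of 5.37 (4.98 to 5.79), and 33.0% of its HCs had a UMI against 2.2% in WT. Cyp2c67 rose from 10.5 to 150 CPM (3.26), and Nipal1, a magnesium transporter gene, from 0.263 to 8.37 CPM (4.41, 3.15 to 6.06). Nipal1 stood at 10.8 CPM in YAPKO and 24.4 in DKO, so WT alone was low. H2-Bl, a class I histocompatibility gene annotated as a polymorphic pseudogene, stood at 12.8, 14.6, 0.217 and 20.7 CPM in WT, YAPKO, TAZKO and DKO (-6.46). Wfdc12, a small secreted inhibitor, fell from 6.2 to 0.144 CPM (-6.01, -9.07 to -4.12), where 2 UMIs in TAZKO give a wide interval.

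Hippo pathway components did not pass 2-fold: of 21 counted, 0 rose and 0 fell, with a median of 0.27. Amotl2, a junction protein that binds YAP, came nearest, from 6.99 to 20.3 CPM (0.96, 0.65 to 1.26), with 3.96 in YAPKO and 8.15 in DKO. The kinase adaptor Mob1a had 0.73, the upstream kinase Map4k4 0.67, the tumour suppressor Nf2 0.54 and Taok1, the most abundant member, 0.27. In shallow HCs the list median was 0.87, and Amotl2 (2.02), Nf2 (1.16) and Taok1 (1.1) passed 2-fold, while in deep HCs the median was 0.22. Among targets of YAP and TAZ 10 of 28 were counted, 2 rose and none fell, with a median of 0.33. Nuak2, a kinase gene, went from 2.47 to 8.3 CPM (1.17, 0.67 to 1.69), with 1.65 in YAPKO and 1.25 in DKO. Its ratio was 0.7 in shallow HCs, and it was far higher outside the HCs (46.4 CPM in WT and 41.3 in TAZKO) and in B-cell barcodes (60.1 and 53.4), so free RNA may add to it, which was not tested. Ajuba, a LIM protein gene, went from 1.26 to 4.62 CPM (1.29), with 0.886 and 0.545. Both were highest in TAZKO and lowest in the libraries without YAP. Ccn1 had -0.33. Ccn2 and Ankrd1 were under the minimum of 50 UMIs. Ccn2 had 12 UMIs in WT (0.631 CPM, 0.326 to 1.1) and 1 in TAZKO (0.0722 CPM, 0.00183 to 0.402), a relative ratio of -3.71 (-9.13 to -0.95), with 0.531 CPM in YAPKO and 0.225 in DKO. It was thus lower in TAZKO, but all HC levels lay far below those outside the HCs (72.3 CPM in WT and 12.1 in TAZKO) and, in WT and TAZKO, below those in B-cell barcodes (4.34 and 5.82). Whether these few UMIs are free RNA was not tested. Ankrd1 had 2 UMIs in WT and 0 in TAZKO. Axl had -0.54 and Lats2 0.48.

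Transcription factors of HCs had 3 of 21 members higher and 1 lower, with a median of 0.32. Nr1i3 rose as given above. Prox1, needed for HC identity, rose from 47.2 to 199 CPM (1.49, 1.38 to 1.6), with 106 in YAPKO and 136 in DKO, and had 1.47 in deep HCs. Onecut1, also called HNF6, fell from 25.8 to 16.7 CPM (-1.21), while Cebpb, the most abundant, had -0.98. The master regulators Hnf4a and Cebpa had 0.35 and 0.47.

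Biliary and progenitor genes had 2 of 8 members higher and 5 lower, with a median of -1.2. Spp1, osteopontin, stood at 39.0 CPM in WT, 223 in YAPKO, 12.3 in TAZKO and 22.5 in DKO (-2.24, -2.49 to -2.0), and Cd63 went from 5.41 to 1.3 CPM (-2.64). Both were lowest in TAZKO. Outside the HCs Spp1 stood at 259 and 120 CPM. Krt18, a keratin that HCs also hold, went from 183 to 121 CPM (-1.18), and Afp, the fetal albumin relative, had -1.44. Sox9, a biliary transcription factor gene, rose from 11.6 to 35.6 CPM (1.03), with 13.2 in YAPKO and 7.19 in DKO. Krt19 and Epcam, which define biliary cells, were at 0.21 and 0.315 CPM in WT and 0.0722 each in TAZKO, at or near 0.

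Genes of fasting and gluconeogenesis had 0 of 18 higher and 6 lower, with a median of -0.62: Fgf21, a fasting hormone (5.1 to 1.88 CPM, -2.02), Angptl4, an inhibitor of lipoprotein lipase (-1.4), Igfbp1 (305 to 198 CPM, -1.21), Sds, Lpin1 (-1.02) and Fbp1 (-1.01). Pck1, the rate-setting enzyme and most abundant member, went from 1687 to 1308 CPM (-0.95). Fatty acid synthesis had 2 of 18 higher and 1 lower, with a median of 0.28. Its transcription factors Srebf1 (23.8 to 75.7 CPM, 1.09) and Mlxipl (37.6 to 115, 1.03) rose, and Thrsp, an activator of lipogenesis, fell from 799 to 433 CPM (-1.46). Scd1, the desaturase and most abundant member, went from 2173 to 6499 CPM, with a ratio of 1.00 that ended just short of 2-fold. Cholesterol synthesis had 0 of 20 higher and 1 lower, with a median of -0.31 that is above 0 without centring. The gene that fell was Fdps (232 to 124 CPM, -1.48), while Sqle and Msmo1 had -0.92 and -0.74 and Sc5d, the most abundant, had 0.01.

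Iron genes had 2 of 17 higher and 2 lower, with a median of -0.16. Besides Hamp, Id1, a BMP target, fell (8.99 to 5.92 CPM, -1.18), and Tfrc, the transferrin receptor gene (8.36 to 28.7 CPM, 1.2), and Smad6 (1.39) rose. Ftl1, a ferritin subunit, had -0.98 and Trf, transferrin and the most abundant, -0.35. The clock list had 1 of 18 higher and 1 lower, with a median of 0.29. Dbp, a clock output factor, stood at 5.89 CPM in WT, 12.5 in YAPKO, 3.25 in TAZKO and 132 in DKO (-1.44), and Per2 went from 2.31 to 8.73 CPM (1.34). The time of day at which the livers were taken was not stated. Cry1, Arntl and Tsc22d3 had 0.95, 0.87 and 0.58.

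Immediate early and dissociation genes, which cell isolation itself can raise, had 0 of 21 higher and 6 lower, with a median of -0.42 that is above 0 without centring. Hspa1a, a heat shock protein gene, stood at 16.3 CPM in WT, 0.709 in YAPKO, 2.17 in TAZKO and 1.41 in DKO (-3.49, -4.08 to -2.95). Here WT stood apart from all 3 knockouts. Atf3 (-2.63), Dnajb1 (60.6 to 31.0 CPM, -1.55), Fos (63.2 to 33.1, -1.51), Jun (-1.13) and Hspa1b (-1.08) also fell, and Hsp90aa1, the most abundant, had -0.67. Hspa1a outside the HCs stood at 242 CPM in WT and 62.1 in TAZKO, so that difference also ran through the libraries, and its part in the other results was not tested.

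Unfolded protein response genes had 1 of 19 higher and 1 lower, with a median of -0.3. Dnajb9, an ER chaperone gene, rose from 61.0 to 229 CPM (1.33, 1.23 to 1.43), and Herpud1, of ER degradation, had 0.85. Chac1 fell from 3.26 to 0.866 CPM (-2.49). Dnajb11 and Xbp1 had -0.83 and -0.76 and Hspa5, the most abundant, -0.29. The p53 list had 0 of 10 higher and 1 lower, Gdf15 (12.1 to 8.01 CPM, -1.17), with a median of -0.06. Btg2, Bax and Zmat3 had -0.98, -0.81 and 0.73, and Trp53inp1, the most abundant, 0.48. Cell division genes were counted for 7 of 20, with 0 higher, 2 lower (Rrm2, -2.35, and Cdk1, -1.37) and a median of -0.04. Tubb5, Stmn1, Pcna and Tuba1b had 0.05, -0.64, 0.15 and -0.04.

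Interferon-stimulated genes had 3 of 22 higher and 3 lower, with a median of -0.23. Ifit1 (4.41 to 14.9 CPM, 1.17), Ifit3 (1.79 to 6.35, 1.25) and Rsad2 (1.13) rose, while Ifitm3, a membrane protein gene and the most abundant member, fell from 1979 to 1200 CPM (-1.3), as did Bst2 (443 to 301, -1.14) and Psmb8 (-1.03). Ifit3 had 0.15 in shallow HCs and too few UMIs in deep ones, and its ratio was -0.11 with the limits of 500 to 6000 read as UMIs, so its rise depends on the barcodes taken. The list thus had no common direction.

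The lists on RNA classes bear on barcode quality. Ribosomal protein genes, listed with the elongation factor gene Eef1a1, had 0 of 24 past 2-fold either way and all 24 below 0, with a median of -0.55 that is above 0 without centring. Their median was -1.31 in shallow and -0.29 in deep HCs. Rplp0, Rpl3, Rps2 and Rps3 had the lowest ratios, -0.88, -0.83, -0.82 and -0.82, and Eef1a1, the most abundant, had -0.17. Genes of the mitochondrial genome had 0 of 13 past 2-fold, with a median of -0.01, but 1.14 in shallow and 0.24 in deep HCs. The most abundant, mt-Cytb, went from 6719 to 8766 CPM (-0.2), and mt-Co3 and mt-Atp8 marked the ends at 0.71 and -0.56, with mt-Nd2 at -0.4 and mt-Nd5 at -0.33. Nuclear-retained RNAs had 1 of 5 higher, Mlxipl, and none lower, with a median of 0.38; Malat1, the most abundant, went from 3043 to 5924 CPM (0.38), Kcnq1ot1 had 0.93 and Nlrp6 0.29. Nuclear genes of oxidative phosphorylation had 0 of 20 higher and 5 lower, with a median of -0.68: Cox5a (902 to 620 CPM, -1.12), Atp5g1 (-1.12), Sdhb (-1.1), Cycs (-1.04) and Ndufa4, the most abundant (2652 to 1953 CPM, -1.02). Their median was -1.01 in shallow and -0.54 in deep HCs. Shallow and deep values are each centred on the median of their own range, 0.94 and 0.42, so part of the difference between them comes from the centring.

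**Figure D5:**
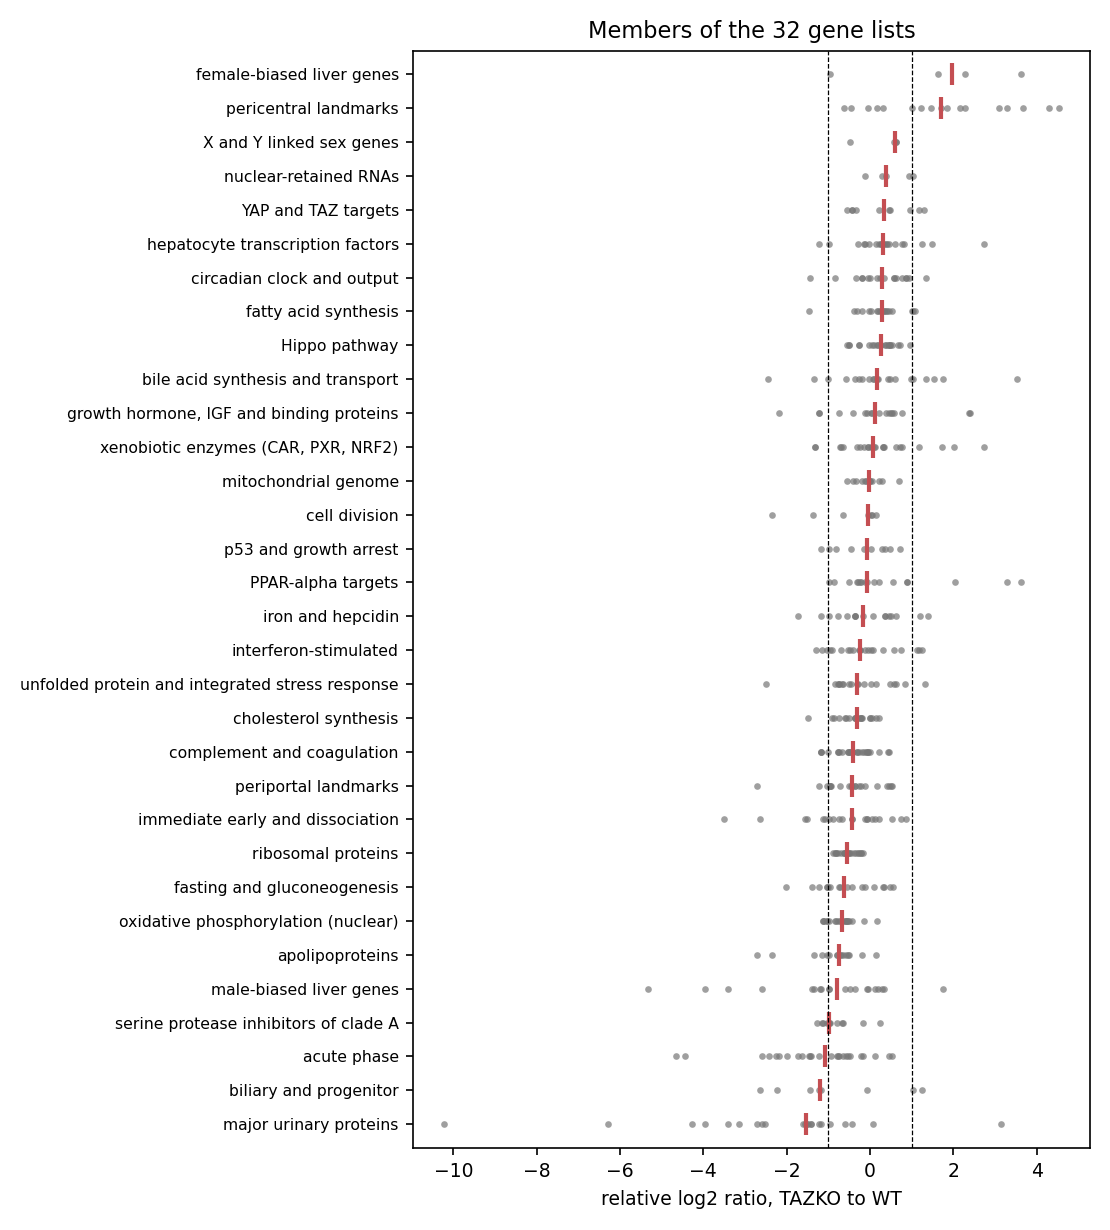
Relative log2 ratio of TAZKO to WT for each counted member (grey points) of the 32 gene lists, ordered by list median (red bars), with dashed lines at 2-fold. Mups, biliary and acute phase genes have medians past 2-fold lower (acute phase only with the selection gene Fgb, and none of the 3 without centring, at -0.95, -0.61 and -0.49), and pericentral and female-biased genes past 2-fold higher, with members on both sides in the Mup and biliary lists; medians between -1 and 0 but smaller in size than 0.58 are above 0 without centring.

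The lists that moved most had the following medians by depth. The pericentral median was 1.11 in deep and 1.8 in shallow HCs, the Mup median -1.24 and -2.29, the acute phase median -0.92 and -1.49, the female-biased median 1.84 and 2.33, and the biliary median -1.05 and -1.25. Without their selection genes the pericentral medians were 1.04 and 1.79, and the acute phase medians -0.84 and -1.43. Of the 127 list members past 2-fold over all HCs, 85 passed it in deep HCs, 35 were short of it there and 7 had too few UMIs. The 7 were Acot1, Cyp2c55, Apoc2, Cdk1, Ifit3, Smad6 and Afp. Besides those given above, the members short of it were Gulo (0.86), Cyp2c29 (0.87), Sds (-0.56), Ctsc (-0.83), Mup3 (-0.71), Mup4 (-0.86), Fbp1 (-0.64), Mlxipl (0.66), Akr1d1 (0.89), Nr0b2 (-0.85), Cyp2b10 (0.87), Fgg (-0.99), Steap4 (-0.99), Apom (-0.97), Apof (-0.72), Ifit1 (1.0, before rounding below it), Rsad2 (0.44), Ifitm3 (-0.99), Psmb8 (-0.81), Cox5a (-0.86), Atp5g1 (-0.8), Sdhb (-0.78), Cycs (-0.85) and Ndufa4 (-0.76). The selection gene Ttr had -0.82. Tbx3, which passed it in both ranges, had 3.32 in deep and 4.6 in shallow HCs. Cyp2c37 also passed it in both, with 2.43 and 4.55, and each value is centred on its own range. List direction was the same in both depth ranges for the 5 lists. The sizes of shallow and deep medians are not compared, since each range is centred on its own median. The comparisons of YAPKO and DKO with WT use the same WT library, so where WT stands apart, all 3 comparisons move together. Examples are Oat, Nipal1, Mup7, Mup11, Mup12, Mup14, Mup21, Mup-ps20 and Hspa1a.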

How the data were processed

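The deposited matrices hold counts of UMIs per gene and barcode for 4 libraries, already filtered to 44974 barcodes by the authors with Cell Ranger (version 6.0.1 per the labels, 4.0.0 per the matrix headers) on mm10. The unit of all values is thus counts, and no read was realigned. Barcodes were kept and HCs chosen by the limits given in the report. They and the gene lists were set with earlier results of these data known. UMIs were summed over the HCs of a library and divided by the library's HC total to give CPM, with exact Poisson intervals. Ratios of TAZKO to WT were centred on their median over genes with at least 50 UMIs, with conditional binomial intervals. A count of 0 was set to 3 UMIs before a ratio was taken, and other counts were left as they were. Over all HCs this applied to 2 of the genes counted. With 1 library a side no test was made. At 20 UMIs, the TAZKO count of Wwtr1, the interval runs from 0.882 to 2.23 CPM around 1.44. Genes named were the 12 highest and 12 lowest under a rule on level, fold and symbol, ranked with 1 UMI added to each library. For each list, up to 4 members with at least 100 UMIs and the largest absolute relative log2 ratio were named. The most abundant member was named too, whether or not it passed 2-fold. Further members past 2-fold were named where few passed, and others were chosen after their values were seen. C5 and Ddit3 were not among the listed genes. Probable doublets were kept in the main comparison: Scrublet, run through scanpy, called 2 and 3 barcodes with its automatic threshold, so the highest 8% of scores were left out as an alternative. Other alternatives varied limits, scaling, depth, minimum and fold. The code was tested on simulated data. Python 3.11.15, numpy 2.4.6, scipy 1.17.1, pandas 2.3.3, scanpy 1.11.5, biopython 1.88 and matplotlib 3.10.9 were used.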

Additional observations from a re-analysis of the deposited data

How the results depend on the processing

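Of the alternatives, 12 were planned in advance and 3 were added after the depths and mt- shares were seen: only HCs with 10000 UMIs or more, only those with fewer than 5000, and only those with 1% mt- UMIs or more. No paired analysis was possible because the groups share fewer than 2 replicate numbers. Values below stand against 460 genes higher, 616 lower, relative log2 ratios of -2.42 for Wwtr1 and 0.56 for Yap1, and a median log2 ratio of 0.58 before centring.

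The choice of barcodes by depth changed many values. Reading 500 to 6000 as numbers of UMIs gave 1120 genes higher and 2023 lower, Wwtr1 at -1.36, Yap1 at 1.29 and a median of 1.08. It also turned the sign of Ifit3, to -0.11 from 1.25, the only one of the named genes and lists past 2-fold to turn in any setting that gives them a value. HCs with fewer than 5000 UMIs gave 990 and 1535 genes, Wwtr1 at -1.27, Yap1 at 1.27 and a median of 0.94. HCs with 2000 to 10000 UMIs gave 1146 and 1457 genes, Yap1 at 1.35 and a median of 1.00. The mean of each cell's own CPM, in which shallow cells weigh as much as deep ones, gave 1073 and 1886 genes, Wwtr1 at -1.32, Yap1 at 1.04 and a median of 0.89. HCs with 10000 UMIs or more gave 279 and 384 genes and a median of 0.42. Differences were thus more numerous among shallow HCs, and Yap1 passed 2-fold only where these dominated or without centring. The counts under 5000 UMIs are out of 7714 genes, and those from 10000 UMIs are out of 9599. Shallow HCs held 3430567 UMIs in WT and 4716448 in TAZKO, against 14258629 and 7583398 in deep HCs. Counting error is therefore larger in shallow HCs. The cause of the difference in numbers was not tested.

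Among the limits on composition, HCs with 1% mt- UMIs or more gave 341 genes lower and a median of 0.42, with 54.7% of the genes past 2-fold on the higher side against 42.8% in the main comparison. A hepatocyte marker share of 10% gave a median of 0.5. Leaving out HCs with other cells' markers gave a median of 0.55, and leaving out the highest doublet scores one of 0.56. A limit of 20% mt- UMIs left all of these values nearly as they were.

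Without centring, 2159 genes were higher, the largest number of any setting, and 165 lower, so that 92.9% of genes past 2-fold were higher, and Yap1 stood at 1.14. The balance of higher and lower genes therefore rests on the centring. Leaving the 50 most abundant genes out of the total gave a median of 0.32, with the counts of genes nearly as before. A minimum of 20 UMIs gave 814 genes higher, a minimum of 200 gave 205 higher and 352 lower, and 1.5-fold gave 1328 and 1910.

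Of 93 named genes past 2-fold, 59 remained so without centring, 68 of 91 with a value in deep HCs, 70 with 1% mt- UMIs or more and 73 of 88 at a marker share of 10%. All 5 lists with a median past 2-fold kept their direction in every setting that gives list medians, which leaves out those on the minimum of UMIs and on the fold. Without centring 3 of them do not pass 2-fold: Mups at -0.95, biliary genes at -0.61 and acute phase genes at -0.49. One of them, the acute phase list, has a median of -0.93 without the selection gene Fgb. Depth limits the rest: 21361 genes had a UMI in HCs and 10560 reached 50 UMIs, and with 1 mouse a side none of these settings bears on variation between mice.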
